A study of Homo sapiens with 18 samples.

Results

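The replication-dependent histone genes make the bulk of the protein around which newly copied DNA is wrapped. They were taken as the protein-coding genes whose symbols are H1-1 to H1-6 or carry the stems H2AC, H2BC, H3C or H4C followed by a number, and 69 of the 61487 counted genes met that description. Of these 69, 6 encode the linker histone H1, 17 encode H2A, 18 encode H2B, 13 encode H3 and 15 encode H4. On GRCh38 the annotation places 55 of them on chromosome 6 between 25726063 and 27893891. A further 11 lie on chromosome 1 between 149782689 and 149887965, 2 lie on chromosome 1 between 228457364 and 228458558, and H4C16 lies on chromosome 12 from 14770720 to 14771131. Many of these genes are near copies of each other, so single-gene counts depend on how reads that match several copies were placed, and the classes are the safer unit.

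In the nucleosome, an H3-H4 tetramer and pairs of H2A-H2B dimers form the core, and H1 binds the DNA that links one core to the next. Transcription of these genes is switched on in S phase through the coactivator NPAT. Their mRNAs usually end in a stem-loop bound by the protein SLBP instead of a poly(A) tail, and SLBP takes part in their processing, translation and decay. Libraries selected on oligo(dT) therefore miss most of them, while ribosome footprints do not depend on a tail. Some of the genes, H2BC12 and H2AC6 among them, are also known to give polyadenylated transcripts.

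The cells were NCI-H1975, a human lung adenocarcinoma line. The sgDAMP cells carried a knockout of DAMP, the peptide that the labels assign to the long noncoding RNA gene DSP-AS1, the sgControl cells received a control guide, and the Scramble cells formed a separate control set. For each of these 3 conditions, 3 libraries of ribosome footprints and 3 of oligo(dT)-selected mRNA were counted, which gives 18 libraries in 6 groups. Cells for footprints were treated with 100 µg/ml cycloheximide. The labels do not say whether the libraries of a group came from separate cultures, so p-values measure the spread between these libraries, which may be technical. In bulk samples such as these, fewer cells in S phase and less histone RNA per cell cannot be told apart.

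The promoters show how the classes differ in sequence although they share their timing. RefSeq windows of 300 bases on GRCh38.p14, from 250 bases before to 50 after the start, were at hand for 64 of the 69 genes. They are shown 5′ to 3′ on the strand of the gene, with capitals marking the letters that were searched on both strands: the octamer ATTTGCAT, a site of OCT1, the CCAAT box, which NF-Y binds, and TATAAA, which TBP binds. Capitals also mark AAACACA, the H1 box, and GGTCCG, taken here as the H4 element. TATAAA may overlap its own reverse complement. The windows chosen are those of the genes with the most footprints in H1, H3 and H4, a second H4 gene for comparison, and H2AC11, whose window runs into that of the H2B gene H2BC11.
H1-4, chr6:26156079-26156378, plus strand: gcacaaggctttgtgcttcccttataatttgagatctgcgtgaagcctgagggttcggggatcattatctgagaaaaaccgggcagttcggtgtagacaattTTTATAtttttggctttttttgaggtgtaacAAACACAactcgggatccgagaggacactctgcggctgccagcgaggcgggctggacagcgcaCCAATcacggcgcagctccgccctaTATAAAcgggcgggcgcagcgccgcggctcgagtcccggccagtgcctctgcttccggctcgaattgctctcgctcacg
H2AC11, chr6:27132793-27133092, plus strand: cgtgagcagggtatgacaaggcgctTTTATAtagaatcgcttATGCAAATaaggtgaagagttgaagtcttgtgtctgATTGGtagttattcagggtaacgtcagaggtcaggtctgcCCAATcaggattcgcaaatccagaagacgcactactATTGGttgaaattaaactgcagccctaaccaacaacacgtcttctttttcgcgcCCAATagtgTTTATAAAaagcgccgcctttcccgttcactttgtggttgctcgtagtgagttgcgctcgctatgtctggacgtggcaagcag
H3C15, chr1:149852358-149852657, plus strand: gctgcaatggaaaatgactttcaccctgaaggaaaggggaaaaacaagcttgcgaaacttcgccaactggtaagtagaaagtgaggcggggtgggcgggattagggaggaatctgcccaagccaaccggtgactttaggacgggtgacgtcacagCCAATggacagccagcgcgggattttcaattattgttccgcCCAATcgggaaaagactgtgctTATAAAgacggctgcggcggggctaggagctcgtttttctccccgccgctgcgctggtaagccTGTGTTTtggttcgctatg
H4C14, chr1:149832407-149832706, plus strand: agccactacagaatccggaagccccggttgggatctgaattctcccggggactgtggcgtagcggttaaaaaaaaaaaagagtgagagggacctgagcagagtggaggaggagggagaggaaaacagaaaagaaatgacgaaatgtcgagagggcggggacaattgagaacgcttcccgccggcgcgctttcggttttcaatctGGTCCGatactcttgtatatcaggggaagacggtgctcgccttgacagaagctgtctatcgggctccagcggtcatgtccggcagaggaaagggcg
H4C5, chr6:26204360-26204659, plus strand: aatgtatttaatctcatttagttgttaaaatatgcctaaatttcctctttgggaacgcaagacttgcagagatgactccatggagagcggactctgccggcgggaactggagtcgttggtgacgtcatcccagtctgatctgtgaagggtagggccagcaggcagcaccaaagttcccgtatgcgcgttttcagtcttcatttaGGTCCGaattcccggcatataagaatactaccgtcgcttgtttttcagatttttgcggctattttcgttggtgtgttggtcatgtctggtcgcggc

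The octamer was present in 11 of 16 H2A windows and 14 of 18 H2B windows, in 1 of 11 H3 windows and in no window of H1 or H4, against 1.8% of all 27305 promoters of that length. That H3 window, of H3C4, has the same coordinates and letters in the table as the window of H2AC7. The H1 box was present in 6 of 6 H1 windows, 1 of 16 H2A windows and 2 of 11 H3 windows, and in none of H2B or H4, against 5.76% of all promoters. A CCAAT box stood in every H1, H2A, H2B and H3 window but in 3 of 13 H4 windows, against 35.7% of all promoters. The H4 element, which was added to the search after the windows had been read, stood in 12 of 13 H4 windows and in 3 windows of the other classes, against 11.2% of all promoters. TATAAA was present in 42 of 64 windows and in 12% of all promoters. The windows of H4C14 and H4C15 were identical over all 300 bases, so these copies share their promoter sequence as well as their product. Both H4 windows shown carry GGTCCG, and neither has a CCAAT box or an octamer. A match is a description of the letters and says nothing of binding in these cells.

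**Figure D1:**
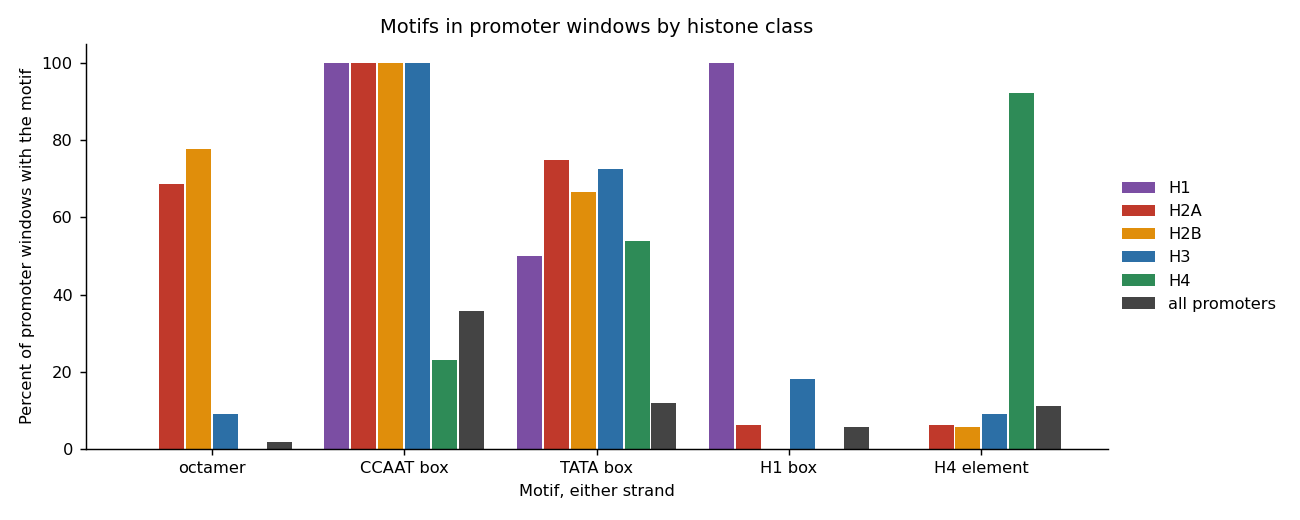
Percent of promoter windows of each histone class, and of all 27305 RefSeq promoters, that hold each motif on either strand. The octamer is at 68.8% in H2A and 77.8% in H2B, the H1 box at 100% in H1, and the H4 element at 92.3% in H4.

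There were 11 pairs of an H2A and an H2B gene that start back to back within 192 to 246 bases of each other. In 8 of the 11 pairs a window held the octamer. H2AC11 and H2BC11 start 246 bases apart, and 253 bases of the H2AC11 window shown above are the H2BC11 window read on the other strand.

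Depth and the state of the replicates set what can be tested. Protein-coding genes received 4737014 to 5248392 counts per footprint library in sgDAMP, 5429389 to 6196985 in sgControl and 82970 to 238698 in Scramble. They received 16334887 to 16496340 counts in sgDAMP mRNA, 16298568 to 16772684 in sgControl mRNA and 9936322 to 11373609 in Scramble mRNA. DSP-AS1 itself had 0, 1 and 1 footprints in sgDAMP, against 175, 176 and 216 in sgControl. Its mRNA counts were 319, 324 and 336 in sgDAMP, against 299, 328 and 309 in sgControl. The 3 footprint libraries of sgDAMP, and likewise those of sgControl, agreed within sampling noise for nearly all genes and were counted as 1 sample each, so their comparison has no replicate test. The exceptions were 21 of 12454 genes in sgDAMP and 57 of 12195 in sgControl. Among histone genes, H2AC19 and H2AC25 varied beyond sampling noise in sgDAMP and H3C15, H3C3 and H4C14 in sgControl, and the mean chi-square per degree of freedom was 1.05 in sgDAMP and 1.23 in sgControl. Reads without a unique alignment made up 24.99% to 25.23% of all footprint reads in sgDAMP, 23.6% to 23.7% in sgControl and 45.2% to 48.2% in Scramble. Some of the 9 lung and epithelial markers were counted in every library, although NKX2-1 and NAPSA were at 0 in all footprints. SFTPB was at 0 in sgDAMP and sgControl footprints and in sgDAMP and Scramble mRNA. KRT19 was at 0 in Scramble footprints. PTPRC and CD3E, which mark leukocytes, were at 0 in all 18.

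Histone genes were read by ribosomes in every condition. Levels are given as CPM, which here means counts out of 1000000 counts on protein-coding genes of the same library. The 69 genes together stood at 26568, 26722 and 26717 CPM in sgDAMP footprints, 32304, 32603 and 32933 in sgControl, and 24571, 26656 and 30372 in Scramble. The sgDAMP libraries all lay below those of sgControl, and the Scramble libraries spanned the sgDAMP values. The summed histone footprints were 405835 in sgDAMP, 579751 in sgControl and 13769 in Scramble. By counts not corrected for length, H4 led all 3 conditions, at 30.4% of histone footprints in sgDAMP, 29.4% in sgControl and 30.6% in Scramble. H3 held 25.3% in sgDAMP, 29.2% in sgControl and 17.3% in Scramble. H2A held 22.9% in sgDAMP, 19.7% in sgControl and 24.99% in Scramble. H2B held 14.6%, 15.6% and 16.0% in the same order of conditions, and H1, which is present in fewer copies per nucleosome and is a longer protein, held 6.77%, 6.10% and 11.1%. Per kilobase of annotated gene, H3C15 led the sgControl footprints with 9167 CPM per kilobase, followed by H4C14 with 7748. In sgDAMP these genes stood at 6130 and 5888 on the same scale. H4C5 stood at 3574 in sgDAMP and 3862 in sgControl, and H2AC19 at 3649 in sgDAMP and 3493 in sgControl.

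The same genes were scarce in oligo(dT)-selected RNA. They stood at 861, 1295 and 907 CPM in sgDAMP mRNA, 541, 709 and 845 in sgControl, and 247, 262 and 254 in Scramble. On this base all sgDAMP libraries were above all sgControl libraries, at the closest by 861 against 845, and Scramble was lowest. H1-2 alone supplied 62.5% of these counts in sgDAMP and 58.0% in sgControl, and for that gene the groups overlapped. The sums were not taken on the TMM scale explained below, nor was the share of all genes so separated on this base. H1 supplied 62.9% of these counts in sgDAMP and 58.7% in sgControl but 12.5% in Scramble. H3 and H4 supplied 2.27% and 2.97% in sgDAMP, 2.62% and 4.41% in sgControl, and 4.21% and 4.07% in Scramble. In Scramble mRNA H2B led with 43.9%, followed by H2A with 35.3%.

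**Figure D2:**
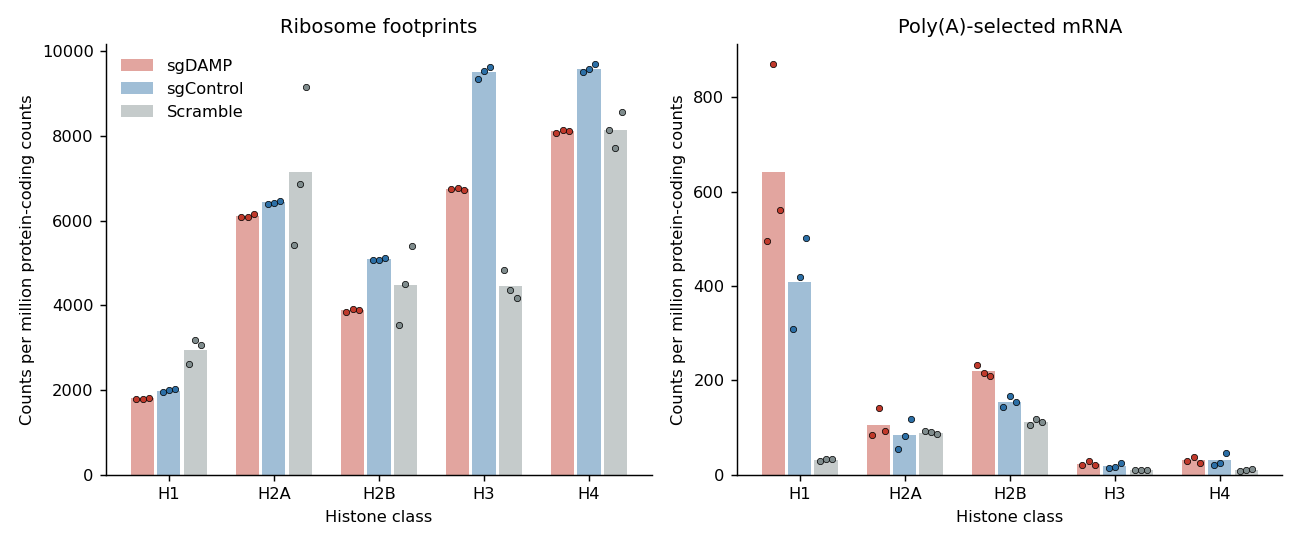
CPM (protein-coding counts as the base) for each histone class, footprints on the left and mRNA on the right, with a point per library and a bar at the mean of 3 libraries. H3 and H4 are the tallest classes in sgControl footprints, at 9508 and 9595, while H1 is the tallest in sgDAMP and sgControl mRNA.

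The comparison of sgDAMP with sgControl footprints asks whether loss of the peptide changes how much each histone gene is translated. Footprints on every class were lower in sgDAMP. After scaling by TMM (trimmed mean of M-values, which sets the typical gene to no difference), the ratio of summed footprints, sgDAMP over sgControl, was 0.584 for H3, 0.630 for H2B, 0.696 for H4, 0.747 for H1 and 0.783 for H2A. The 95% intervals, which are Clopper-Pearson bounds and cover counting error only, ran from 0.579 to 0.588 for H3, 0.623 to 0.636 for H2B, 0.691 to 0.701 for H4, 0.735 to 0.759 for H1 and 0.776 to 0.789 for H2A. The size of the fall depended on the scaling: with the protein-coding total of each group as the base, the ratios were 0.709 for H3, 0.765 for H2B, 0.845 for H4, 0.907 for H1 and 0.951 for H2A, all still below 1. Scaling by all gene counts in place of TMM moved the median of all genes by 0.23 on the log2 scale. With 1 sample a condition, no test of the condition was possible. Summed markers of other cell types stood at 5.64 to 6.70 counts per 1000000 counts on all genes in sgDAMP footprints, against 1.02 to 1.75 in sgControl footprints, and their part in the result was not tested. Of these 8 markers, 6 were at 0 in both conditions, and the collagen gene COL1A1 made most of the sums, with 120 footprints in sgDAMP and 30 in sgControl.

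Across single genes, 61 of the 69 had at least 30 footprints over both conditions. Of these, 25 were lower in sgDAMP by more than 1.5-fold and 0 were higher, where 13.3% of all 14289 genes with that many footprints were lower and 15.7% higher. The median ratio of the 61 genes was 0.740, a median log2 ratio of -0.43 where all genes had -0.01. The counting interval lay below 1 for 51 genes, above 1 for H2AC14 and H2AC18, and across 1 for 8, where 29.3% of all genes had an interval below 1 and 26.9% above. These counts moved with the scaling. Scaled by all gene counts, 8 genes were lower by more than 1.5-fold and 1 was higher. Scaled by the protein-coding total, 5 were lower and 1 higher, 31 intervals lay below 1 and 11 above. The shares of all genes given above are for TMM. Those under the other scalings were not taken, so these counts, and such counts for the lists below, have no background beside them. An edgeR fit on the summed libraries, with the spread of the mRNA libraries, called 0 histone genes, where 0.279% of all genes were called in either direction.

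**Figure D3:**
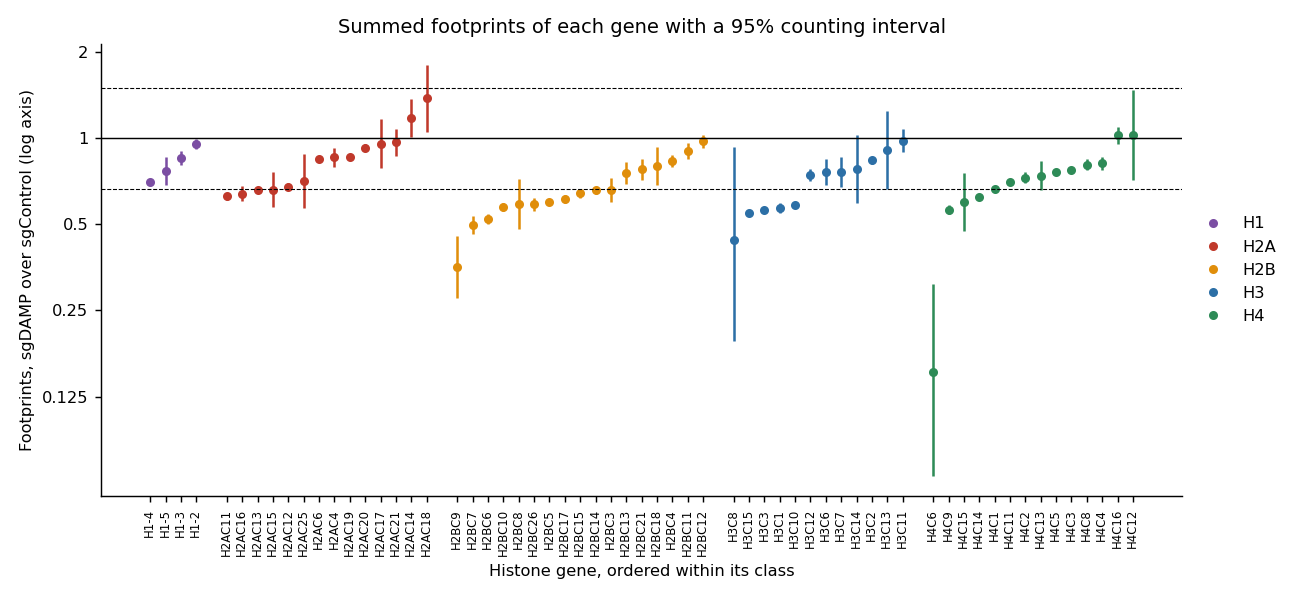
Ratio of summed footprints, sgDAMP over sgControl, for the 61 genes with at least 30 footprints, on a log axis, with 95% counting intervals. Dashed lines mark 1.5-fold in either direction, no gene lies above the upper one, and 11 of 17 H2B genes lie below the lower one.

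Among linker histones, H1-4 had the most footprints in sgDAMP and sgControl, with 73.7% and 78.2% of the class, while H1-2 led in Scramble with 47.4%. H1-4 had 1328, 1324 and 1337 footprint CPM in sgDAMP, against 1521, 1561 and 1577 in sgControl, a ratio of 0.704 after TMM (0.691 to 0.717). H1-2 had 275, 271 and 274 in sgDAMP, against 235, 234 and 238 in sgControl. The sgDAMP libraries were thus lower for H1-4 and higher for H1-2 on this scale. On the TMM scale H1-2 stood at 0.954 (0.914 to 0.996), so its direction turns with the scaling, and with the protein-coding total it was 1.16 (1.11 to 1.21). H1-3 and H1-5 had TMM ratios of 0.854 and 0.768. No H1 gene passed 1.5-fold. Without H1-4 the class ratio was 0.901, against 0.747 with it. H1-1 and H1-6, the second of which is known from testis, had too few footprints for a ratio.

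Single H2A genes lay on both sides of no difference. H2AC19 had 1910, 1935 and 2000 footprint CPM in sgDAMP, against 1833, 1872 and 1891 in sgControl, which was higher in every sgDAMP library on this scale and gave 0.860 (0.846 to 0.873) on the TMM scale. H2AC6 had 1161, 1165 and 1149 in sgDAMP, against 1132, 1124 and 1120 in sgControl, with a TMM ratio of 0.848. H2AC13 had 698, 699 and 693 in sgDAMP, against 883, 869 and 863 in sgControl, with a TMM ratio of 0.658, and H2AC12 stood at 0.677. Within this class 4 of 14 genes with enough footprints were lower by more than 1.5-fold, and the ratios ran from 0.627 for H2AC11 to 1.38 for H2AC18. The interval of H2AC18, which had 136 footprints in sgDAMP and 95 in sgControl, ran from 1.05 to 1.81. Read together with its near copy H2AC19, it gave 0.861 (0.848 to 0.875), so its single value depends on how shared reads were placed.

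Most H2B genes were lower in sgDAMP. H2BC5 had 1183, 1196 and 1180 footprint CPM in sgDAMP, against 1615, 1634 and 1656 in sgControl, a TMM ratio of 0.597 (0.586 to 0.608). H2BC14 stood at 0.656, H2BC10 at 0.575 and H2BC17 at 0.614. In all, 11 of 17 H2B genes were lower by more than 1.5-fold, and 16 of the 17 intervals lay below 1. The exception was H2BC12, the leading polyadenylated H2B gene in these libraries, with 183, 172 and 177 in sgDAMP, against 158, 147 and 145 in sgControl, a TMM ratio of 0.9748 (0.924 to 1.03) and a ratio of 1.18 with the protein-coding total. The lowest H2B ratio belonged to H2BC9, at 0.356 from 91 footprints in sgDAMP.

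H3 had the lowest class ratio under the scalings given above. The counts on H3C15, one of the 3 genes for the H3.2 protein, were 3216, 3161 and 3148 footprint CPM in sgDAMP, against 4649, 4777 and 4821 in sgControl, a TMM ratio of 0.550 (0.544 to 0.556). H3C10 had 1284, 1327 and 1313 in sgDAMP, against 1830, 1845 and 1850 in sgControl, with a TMM ratio of 0.585, and H3C3 stood at 0.561. H3C2 had 518, 517 and 511 in sgDAMP, against 517, 499 and 507 in sgControl, with a TMM ratio of 0.836. Summed, the H3.2 genes H3C13, H3C14 and H3C15 gave 0.550 and the other 10 H3 genes gave 0.617. Both groups of H3 genes were thus lower, and 5 of 12 single genes passed 1.5-fold.

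H4 genes encode, with H4C7 as a known exception, the same protein. H4C14 had 2307, 2330 and 2358 footprint CPM in sgDAMP, against 3003, 3068 and 3133 in sgControl, a TMM ratio of 0.625 (0.617 to 0.634). Its ratio read together with that of H4C15, whose promoter window is the same, was likewise 0.625. H4C5 had 1466, 1469 and 1483 in sgDAMP, against 1591, 1573 and 1610 in sgControl, with a TMM ratio of 0.762. H4C3 stood at 0.774 and H4C11 at 0.701. Of 14 H4 genes with enough footprints, 5 were lower by more than 1.5-fold. H4C6 had the lowest ratio, 0.152, from 9 footprints in sgDAMP and 57 in sgControl. H4C12 and H4C16 had ratios of 1.02 each, with intervals across 1.

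Footprints were lower in sgDAMP over both large gene blocks. The 55 genes on chromosome 6 held 67.6% of histone footprints in sgDAMP and 66.8% in sgControl, with a summed TMM ratio of 0.681 (0.678 to 0.684). The 11 genes of the main chromosome 1 block held 31.3% in sgDAMP and 32.2% in sgControl, with a ratio of 0.655 (0.650 to 0.660). H4C16 on chromosome 12 was at 1.02 (0.957 to 1.09). Genes that start back to back did not always share a ratio. H2AC11 and H2BC11, shown above, stood at 0.627 and 0.902, and H2AC17 and H2BC17 at 0.957 and 0.614. H2AC6 and H2BC4 stood at 0.848 and 0.833, and H2AC15 and H2BC15 at 0.660 and 0.641. These values carry the uncertainty of reads shared between copies.

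The footprint ratio was also read by how much oligo(dT)-selected RNA a gene gave. The 29 genes with at least 1 mRNA CPM over sgDAMP and sgControl had a summed footprint ratio of 0.702 (0.699 to 0.706), and 8 of them were lower by more than 1.5-fold. The 40 genes below that level had a summed ratio of 0.632 (0.628 to 0.636), and 17 of the 32 with enough footprints were lower by more than 1.5-fold. No test was made of this difference.

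In mRNA, no histone gene was called between sgDAMP and sgControl. edgeR's quasi-likelihood test could be run on 35 of the 69 genes, and 0 had a Benjamini-Hochberg adjusted p under 0.05, where 0% of all 14032 genes tested were called. At an unadjusted edgeR p under 0.05 there were 2, H2BC5 and H4C2, and the DESeq2 Wald test called 0. The share of all genes under that unadjusted limit was not taken, so these 2 are not read as changes. The median log2 fold change of the 35 genes was 0.02, and that of all genes 0.03.

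H1-2 had the most mRNA. It stood at 492, 864 and 558 CPM in sgDAMP, against 306, 415 and 496 in sgControl, and the groups overlapped. Its log2 fold change was 0.53 with a standard error of 0.30, and edgeR's adjusted p was 0.862. H2BC12 had 150, 123 and 139 in sgDAMP, against 100.4, 106 and 95.4 in sgControl, with a log2 fold change of 0.30 and the same adjusted p of 0.862 in edgeR. H2BC5 had 18.98, 28.2 and 19.6 in sgDAMP, against 9.003, 13.8 and 14.1 in sgControl, with a log2 fold change of 0.72 and a standard error of 0.31. For these 2 H2B genes every sgDAMP library was above every sgControl library. The reverse held for H1-4, H2BC18 and H4C2, and the other genes overlapped, where 5.81% of all genes tested did not overlap and were higher and 5.42% did not overlap and were lower. H2AC6 spread widely, with 31.3, 66.1 and 30.7 in sgDAMP, against 19.3, 33.0 and 64.8 in sgControl. H3C10 had 10.6, 16.6 and 12.1 in sgDAMP, against 7.69, 8.34 and 12.5 in sgControl, and H4C8 had 8.94, 14.9 and 5.64 in sgDAMP, against 7.27, 9.51 and 14.3 in sgControl.

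**Figure D4:**
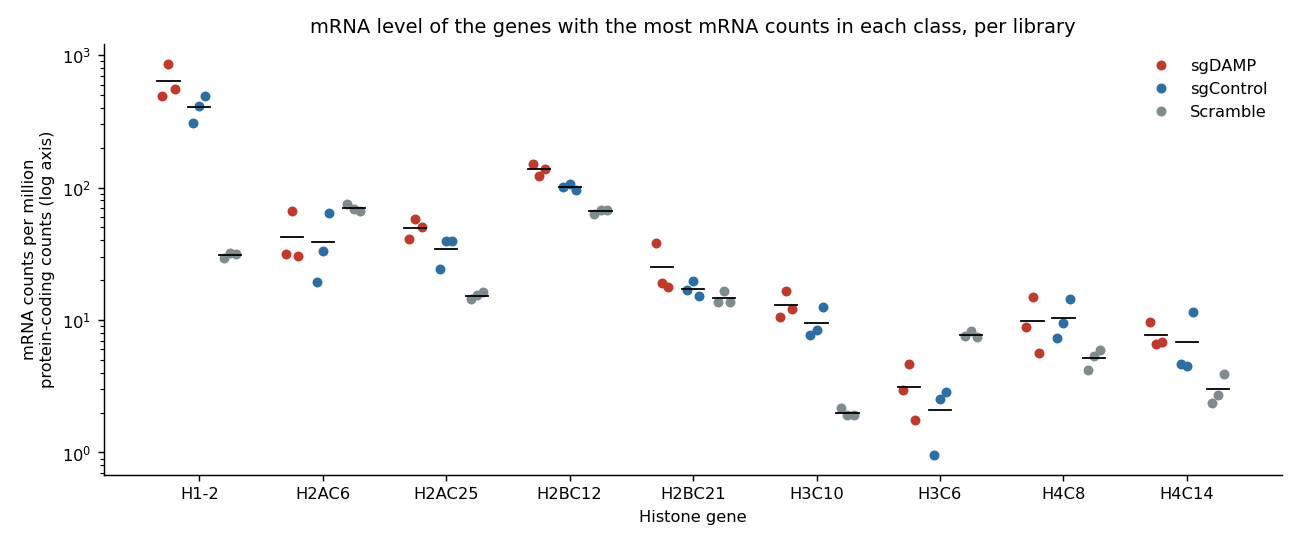
mRNA CPM, on a log axis, for the genes with the most mRNA counts in each class, with a point per library and a line at the mean of 3 libraries. H1-2 is between 29.4 and 32.2 in the 3 Scramble libraries and between 306 and 864 in the sgControl and sgDAMP libraries, and H3C6 is higher in Scramble.

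Whether footprints changed relative to mRNA was asked with an interaction term, in which each footprint group entered as 1 summed sample and the spread came from the mRNA libraries, so each lone sample is assumed to vary like them. Of the 62 histone genes tested, 0 had an edgeR adjusted p under 0.05, where 0.031% of 19357 genes were called higher and 0.227% lower. At an unadjusted p under 0.05 there were 4, H2BC5, H2BC7 and H2BC8 below 0 and H4C13 above it at 4.51, and the DESeq2 Wald test called 0. The share of all genes under that unadjusted limit was not taken, so these 4 are not read as changes. H4C13 had no mRNA count in sgDAMP, so its value depends on the prior count. H2BC7 had 11 mRNA counts in sgDAMP and 1 in sgControl, and H2BC8 had 13 and 3, so their values rest on few counts. The median interaction was -0.42 on the log2 scale for histone genes and 0.00 for all genes. H2BC5, with higher mRNA and fewer footprints in sgDAMP, had an interaction of -1.44 with a standard error of 0.61 and an edgeR adjusted p of 0.8455. With the footprint libraries taken as replicates, H2BC5 and H2BC7 were called lower. Those libraries agreed within sampling noise, so that fit may not measure a spread between cultures. The share of all genes it called was not taken.

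Footprints were far above mRNA for nearly all histone genes in each condition. The question here is how much translation each gene shows for its RNA, and the poly(A) selection enters every ratio. In sgDAMP, edgeR's quasi-likelihood test called 56 of 60 genes higher in footprints and 1 lower, where 38% of all genes were called higher and 31.7% lower. In sgControl it called 59 of 62 higher and 1 lower, where 40.3% of all genes were called higher and 32.1% lower. In Scramble it called 48 of 51 higher and 0 lower, where 17.1% were called higher and 27.4% lower. The median log2 difference of the histone genes was 7.31 in sgDAMP, 7.91 in sgControl and 10.79 in Scramble, where all genes tested had 0.10, 0.20 and -0.68 in the same conditions. Some of these genes had no mRNA counts, 3 of those tested in sgDAMP, 2 in sgControl and 12 in Scramble, and their fitted differences depend on the prior count. Scaling by total counts in place of TMM moved the median of all genes by -2.84 on the log2 scale in Scramble, so differences there hold relative to that median.

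By class, the CPM in footprints over that in mRNA was 290 for H3, 267 for H4, 57.7 for H2A, 17.7 for H2B and 2.81 for H1 in sgDAMP. In sgControl it was 521 for H3, 312 for H4, 76.0 for H2A, 32.8 for H2B and 4.85 for H1. In Scramble it was 418 for H3, 782 for H4, 79.7 for H2A, 40.2 for H2B and 92.8 for H1. H3C15 was the extreme case, with 48291 footprints and 0 mRNA counts in sgDAMP, which is at least 52170-fold higher in CPM against a floor of 3 mRNA counts over the group. In sgControl it had 84457 footprints and 1 mRNA count. H2AC17 in Scramble, with 1491 footprints and 0 mRNA counts, was at least 30330-fold higher by the same floor. Its level there was uneven, at 1780, 3020 and 5496 CPM from 425, 610 and 456 footprints, and did not follow the coding depth of the libraries.

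A few genes had no excess of footprints over mRNA in some conditions. H1-2 had a log2 difference of -1.12 in sgDAMP with a standard error of 0.61 (edgeR adjusted p = 0.0918) and -0.43 in sgControl with a standard error of 0.40 (edgeR adjusted p = 0.340), but 5.69 in Scramble (edgeR adjusted p = 1.25e-16). H2AC25 was called lower in footprints by edgeR in sgDAMP, at -2.26 with an adjusted p of 5.40e-04, and in sgControl, at -1.25 with an adjusted p of 0.0327. In Scramble H2AC25 was at 0.05 with an edgeR adjusted p of 0.952. H2BC12 was 0.47 in sgDAMP with an edgeR adjusted p of 0.428 and 0.90 in sgControl with an edgeR adjusted p of 0.0470.

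The control sets differed from each other in which copies were counted. This asks how far the sgControl and Scramble values can stand in for each other, and set and condition cannot be told apart. In mRNA, 27 genes were tested between sgControl and Scramble, and edgeR called 22 higher and 2 lower, where 33.4% of all genes were called higher and 46.1% lower. H1-2 had 306, 415 and 496 CPM in sgControl, against 29.4, 32.2 and 31.8 in Scramble, a log2 fold change of 4.59 with an edgeR adjusted p of 2.47e-07. H3C10 had 7.69, 8.34 and 12.5 in sgControl, against 2.16, 1.93 and 1.91 in Scramble, a log2 fold change of 3.12 with an edgeR adjusted p of 4.60e-06. H4C11 was higher by 4.82 and H4C3 by 4.55 on the log2 scale, with edgeR adjusted p of 2.45e-05 and 2.26e-05. H2AC25 was higher by 2.05 and H2BC12 by 1.51, with edgeR adjusted p of 2.18e-05 and 1.95e-05. H2BC6 and H3C6 were lower, by -1.73 and -1.002 on the log2 scale, with edgeR adjusted p of 0.00808 and 0.0192. H3C6 had 0.954, 2.52 and 2.84 in sgControl, against 7.52, 8.26 and 7.45 in Scramble. Scaling by total counts moved the median of all genes by -0.83 on the log2 scale in this comparison. The mRNA sets also differed in how reads were assigned. Reads outside any gene made up 42.5% to 43.2% in Scramble mRNA, against 1.15% to 1.43% in sgControl mRNA. Reads set aside as ambiguous between genes made up 3.13% to 3.21% in Scramble, against 13.7% to 14.3% in sgControl. The part of these differences in the fold changes was not tested.

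In footprints the control sets differed in H3, at 9508 CPM in sgControl and 4467 in Scramble, and in the genes read within each class. The Spearman correlation of a gene's share of its class, over the 65 genes with any footprint, was 0.993 between sgDAMP and sgControl and 0.377 between sgControl and Scramble. Each of these points is a sum over 3 libraries, and copies that share reads are not independent points. Between sgDAMP and sgControl, 3.68% of H3 footprints to 6.72% of H2A footprints would have to change gene for the shares to match. Between sgControl and Scramble the figure was 41.8% for H1, 56.7% for H2B, 58.5% for H4, 63.6% for H2A and 72.8% for H3. Of 59 genes with footprints in both control sets, 14 differed by more than 10-fold in their share.

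In H3, H3C15 had 84457 footprints in sgControl, or 49.9% of the class, and 12 in Scramble, or 0.503%. The 3 H3.2 genes together held 50.1% of H3 footprints in sgControl and 3.10% in Scramble. H3C2, an H3.1 gene, led in Scramble with 48.2% of the class, against 5.33% in sgControl. In H2A, H2AC19 had 29.0% of the class in sgControl, and with H2AC18 29.1%, against 8.05% for both in Scramble. H2AC17 led in Scramble with 43.3%, against 0.178% in sgControl, and its level in Scramble was uneven, as given above. In H4, H4C14 and H4C15 together held 32.1% in sgControl and 6.90% in Scramble, where H4C8 led with 21.6%. H2BC21 led H2B in Scramble with 37.4%, and its level there was uneven, at 804, 2074 and 2579 CPM, against 63.7, 63.7 and 64.8 in sgControl. Reading near copies together narrowed the gap for H2AC18 with H2AC19 and for H4C14 with H4C15, but these sums still differed between the sets. The 3 H3.2 genes read together stayed far apart, at 50.1% in sgControl and 3.10% in Scramble. H2AC19 alone held 29.0% in sgControl and 0.203% in Scramble, and H4C14 alone held 32.0% in sgControl and 0.380% in Scramble, against the sums with H2AC18 and H4C15 given above. The share of reads without a unique alignment also differed between the sets, as given above, and its part in these differences was not tested.

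**Figure D5:**
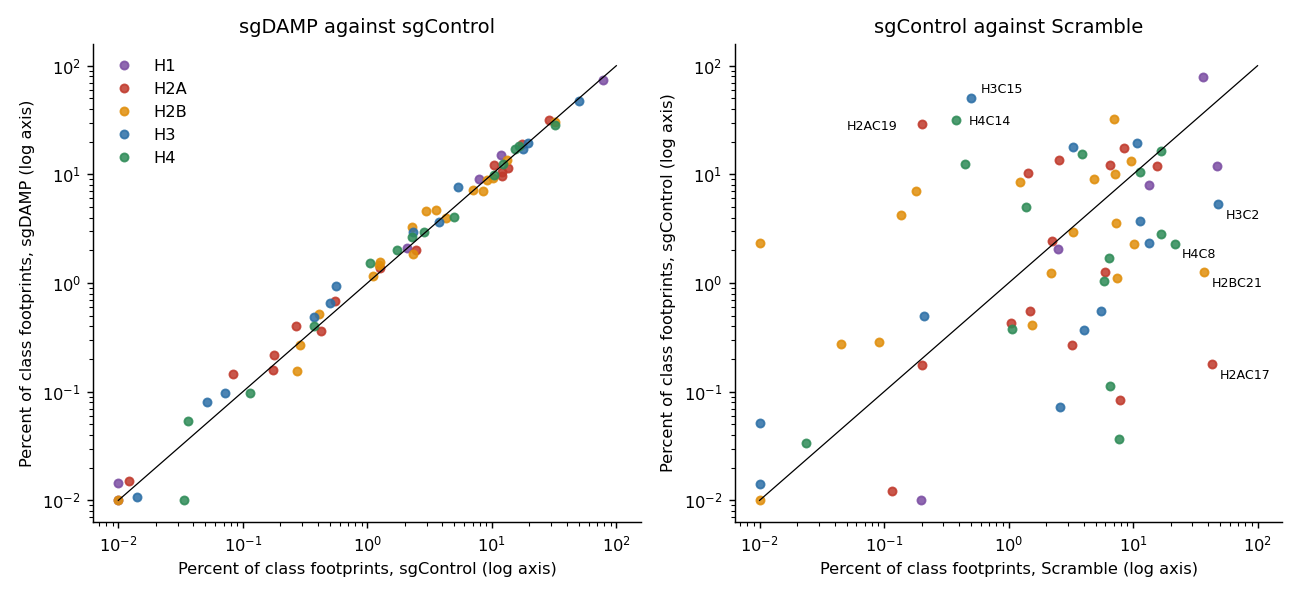
Percent of its class's footprints taken by each histone gene, on log axes, sgDAMP against sgControl on the left and sgControl against Scramble on the right, with shares under 0.01% drawn at 0.01%. The left panel lies along the diagonal and the right panel scatters, with H3C15 at 49.9% in sgControl and 0.503% in Scramble.

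Some of the 69 genes gave few or no counts. H2AC7, H3C4 and H4C7 had no count in any of the 18 libraries. On chromosome 6 the annotation places H2AC7, from 26198784 to 26199293, inside H3C4, from 26196784 to 26199293. Reads on both genes may have been set aside as ambiguous, so these 0 counts do not show that H2AC7 or H3C4 was silent. There were 4 genes without a footprint in sgDAMP, 6 in sgControl and 9 in Scramble, and 10, 6 and 22 without an mRNA count in the same conditions. The divergent pair H2AC1 and H2BC1, which is known from testis, had 0 and 1 footprints in sgDAMP and 0 and 2 in sgControl.

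Of 18 genes for synthesis, end processing, translation and decay of histone mRNA, 2 were lower in sgDAMP footprints by more than 1.5-fold and 0 were higher, with a median log2 ratio of -0.20. That share, 11.1%, is near the 13.3% of all genes. With the protein-coding total as the base, 1 was lower and 3 were higher. SLBP, which binds the stem-loop, had 220 footprints in sgDAMP and 309 in sgControl, a TMM ratio of 0.685 (0.573 to 0.816), just short of 1.5-fold. NPAT had 49 in sgDAMP and 50 in sgControl, a ratio of 0.942 (0.622 to 1.43). CPSF3, the endonuclease that cuts the end of histone pre-mRNA, had 6667 footprints in sgDAMP and 82716 in sgControl, a ratio of 0.0775. Out of 1000000 counts on all genes it stood at 335, 344 and 326 in the sgDAMP libraries, against 4103, 3484 and 3508 in the sgControl libraries, which spread beyond sampling noise, and averaged 10.6 in Scramble. Protein-coding genes held 6.37% to 20.2% of gene counts in Scramble footprints, 76.3% to 76.6% in sgDAMP and 78.9% to 79.3% in sgControl. The Scramble level is therefore not directly comparable on this base. CPSF3 was highest in sgControl, then in sgDAMP, and lowest in Scramble. It was the gene of that list that passed the interaction test, at -4.02 on the log2 scale with an edgeR adjusted p of 0.00673. TUT7, which adds uridines to histone mRNA during decay, stood at 0.631.

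Of 18 histone chaperone genes with enough footprints, 2 were lower by more than 1.5-fold and 0 higher, which is 11.1% and near the 13.3% of all genes, with a median log2 ratio of -0.08. These were CHAF1A, a subunit of the assembly factor CAF-1, at 0.451 and TONSL at 0.471. Of 12 replication-independent histone variants, 1 was lower and 0 higher, with a median log2 ratio of -0.08. With the protein-coding total 0 were lower and 2 higher. The lower one under TMM was H2AX, the variant phosphorylated at DNA breaks, with 426 footprints in sgDAMP and 669 in sgControl, a ratio of 0.612 (0.541 to 0.692). The H3.3 genes H3-3A and H3-3B, whose mRNAs carry a poly(A) tail and which were named after their values were seen, stood at 1.08 and 1.07. Of 29 S phase and DNA replication genes, 18 were lower and 0 higher, with a median log2 ratio of -0.69, and with the protein-coding total 9 were lower and 3 higher. Among these, RRM1, a subunit of ribonucleotide reductase, stood at 0.0681 with an interaction of -4.21 and an edgeR adjusted p of 0.00896, from 364, 374 and 382 in sgDAMP, against 4476, 4652 and 4860 in sgControl and a mean of 10.5 in Scramble, on the scale used for CPSF3. The transcription factor E2F1 stood at 0.259 from 7 footprints in sgDAMP and 26 in sgControl, the cyclin CCNE2 at 0.342 and the licensing factor CDT1 at 0.460. PCNA, the replication clamp, was named after its value was seen and stood at 1.25. In mRNA, edgeR's adjusted p called 0 of 17 processing genes, 0 of 20 chaperones, 0 of 11 variants and 0 of 28 S phase genes between sgDAMP and sgControl, and 0 in each of these lists had an unadjusted p under 0.05.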

How the data were processed

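The files hold raw read counts per gene for 18 libraries, deposited by the authors. Per the submitters' processing notes, reads were handled with HTSeq 0.11.2, SAMtools 1.10, HISAT2 2.1.0 and Trimmomatic 0.30 on GRCh38, and edgeR was also named. Not given in the sources used here are the annotation release, the strand setting and how multi-position reads were placed, and such reads bear directly on near-identical histone copies. The 5 closing lines of each count file, which name no gene, were left out of library sizes.

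Levels are CPM with the protein-coding total of each library as the base. Tests used edgeR 4.0.16 in R 4.3.3 (quasi-likelihood, filterByExpr with a minimum count of 10, TMM, Benjamini-Hochberg adjustment over all genes tested, threshold 0.05), and were checked on simulated counts. DESeq2 1.42.0 was an alternative. The sgDAMP and sgControl footprint libraries, which agreed within sampling noise for nearly all genes (chi-square over its degrees of freedom averaged 0.910 and 0.909 over the lowest 99% of genes, 1.05 and 1.23 over histone genes), were summed to 1 sample a condition. A gene then counted as lower or higher past 1.5-fold with at least 30 summed counts. Intervals are 95% Clopper-Pearson and, like the floor of 3 counts over a group, cover counting error only. Depth per library is given with the results.

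Genes named are, in each class, up to 4 with most footprints and up to 2 with most mRNA, called genes, and from each list up to 4 called genes plus SLBP, NPAT, H2AX and H4-16, which had no row under that symbol. Others were named after their values were seen. Members, lists and tests were chosen with earlier results of these data known. Same-numbered libraries were not paired by the labels, and their deviations correlated between -0.461 and 0.371. Scaling, filter, tool, fold, left-out libraries and a replicate block were varied. Promoters came from RefSeq on GRCh38.p14.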

Additional observations from a re-analysis of the deposited data

Results flagged for a closer look

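No histone gene met a criterion for a closer look, but genes from the lists beside them did. CPSF3 differed between footprints and mRNA in its sgDAMP over sgControl effect, with an interaction of -4.02 on the log2 scale and an edgeR adjusted p of 0.00673. RRM1 did so with an interaction of -4.21 and an edgeR adjusted p of 0.00896. Each rests on 1 summed footprint sample a condition. In both genes footprints were highest in sgControl, lower in sgDAMP and lowest in Scramble, where protein-coding genes made up less of the counts. Out of 1000000 counts on all genes, CPSF3 averaged 335 in sgDAMP, 3698 in sgControl and 10.6 in Scramble. RRM1 averaged 373, 4663 and 10.5 in the same order. Both spread beyond sampling noise between the sgControl libraries.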

How the results depend on the processing

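Of 89 alternatives other than leaving out libraries, 52 kept their value within the limits set and 37 moved. No class ratio or count of histone genes reversed. The lists were labelled by their total alone, and some turned direction. With the protein-coding total, the processing genes went from 0 higher and 2 lower to 3 higher and 1 lower. The variants went from 0 higher and 1 lower to 2 higher and 0 lower on that base. The class ratios of footprints, sgDAMP over sgControl, moved under scaling in the order H1, H2A, H2B, H3 and H4 to 0.877, 0.919, 0.740, 0.686 and 0.817 (total count), to 0.907, 0.951, 0.765, 0.709 and 0.845 (protein-coding total) and to 0.719, 0.754, 0.606, 0.562 and 0.670 (upper quartile). Without the gene with the most footprints they were 0.901, 0.751, 0.645, 0.618 and 0.729. Leaving out 1 library gave 0.742 to 0.758, 0.777 to 0.791, 0.622 to 0.637, 0.578 to 0.591 and 0.689 to 0.704. The 25 genes past 1.5-fold became 9 with total-count scaling, 6 with the protein-coding total (chosen after seeing the data), 4 at a fold of 2, 0 by edgeR with the spread of the mRNA libraries, and 21 to 26 with 1 library left out. With footprint libraries as replicates edgeR called 51, of which 2 were higher and 49 lower, and 51 with the replicate block. Those are calls by adjusted p and not by fold, from libraries that agreed within sampling noise. The share of all genes so called was not taken. The interaction, 0 called, gave 2 with footprint libraries as replicates and 2 with the replicate block, and 0 to 0 with 1 library left out. sgControl against Scramble mRNA gave 37 with no filter and 24 to 29 with 1 library left out. Footprints against mRNA gave 56 to 58 in sgDAMP, 58 to 60 in sgControl and 47 to 49 in Scramble, and sgDAMP against sgControl mRNA 0 to 0. With the replicate block, sgControl against Scramble mRNA gave 22 in place of 24, and sgDAMP against sgControl mRNA 0. Scramble footprints, with 82970 to 238698 coding counts, limit single-gene values there.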
